A study of Mus musculus with 26 samples.

Results

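Aminoacyl-tRNA synthetases are the enzymes that attach each amino acid to its transfer RNA. Their genes were followed here through positive selection of CD8 T cells in the thymus. Members were taken by symbol from the table of normalized read counts: every symbol made of 1 letter followed by ars or ars2, together with Eprs, Farsa, Farsb, Ears2 and Pars2. This gave 37 genes of 46517 in the table, 20 for cytosolic enzymes and 17 for mitochondrial enzymes (suffix 2). All 37 were among the 16372 genes with a normalized count of at least 10 in at least 2 libraries, which were the genes tested.

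The study sorted thymocytes from 3 mouse lines, each carrying 1 transgenic T cell receptor that recognises an MHC class I ligand, with self-reactivity that is low in TG6, intermediate in F5 and high in OT-1. OT-1 mice were labelled OT-1tg Rag2KO and F5 mice F5tg Rag1KO, both on strain C57/BL6. TG6 mice were TG6tg H2b/d on C57/BL6 x B6.C-H2d/bByJ, with no Rag deletion in the label, so receptor, Rag genotype and H2 haplotype cannot be told apart in comparisons with TG6, nor receptor and Rag genotype in OT-1 against F5. Sorting gave an early population (double positive for CD4 and CD8, CXCR4+ and CCR7-), a late one (double positive, CXCR4- and CCR7+) and mature CD8SP cells (CD8 without CD4, CXCR4- and CCR7+), with 3 libraries of each line at each stage, apart from 2 for late TG6, 26 in all. The labels gave no treatment and no age, and they name the libraries of a line as biological replicates.

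Each synthetase joins its amino acid to the matching tRNA at the cost of ATP, and the charged tRNA is carried to the ribosome by elongation factor 1. In animals 1 set of enzymes serves the cytosol and another, encoded in the nucleus and imported, serves the ribosomes of mitochondria, while the Gars and Kars genes supply both compartments. Several cytosolic enzymes sit together in the multi-synthetase complex on the scaffold proteins Aimp1, Aimp2 and Eef1e1, and a subset of the cytosolic genes is a known target of ATF4, the transcription factor of the amino acid response. Dividing and activated lymphocytes are known to raise protein synthesis, which draws on this machinery.

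Stretches of promoter are shown for 4 of the members that hold the letters of the ATF4 element, as examples of where the letters lie. Gars was called between OT-1 and TG6, and the other 3 were not. RefSeq windows on build GRCm38.p6, from 250 bases before to 50 bases after the start site, matched 26 of the 37 members by symbol. The letters TGATGNAA, the core of the ATF4 response element, were searched on both strands. They were found in 5 of the 7 cytosolic ATF4 targets with a window (71.4%), in 0 of the 5 other cytosolic members and in 0 of the 14 mitochondrial members, against 3.97% of all 32851 windows in the table. Each line gives 30 bases of the strand of the gene, 5′ to 3′, with the match in capitals. TTGCATCA and TTTCATCA are the same letters read on the opposite strand.
Gars (chr6:55037960-55037989, plus strand): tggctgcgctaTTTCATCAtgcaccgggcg
Tars (chr15:11399655-11399684, minus strand): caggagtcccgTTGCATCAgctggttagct
Iars (chr13:49682126-49682155, plus strand): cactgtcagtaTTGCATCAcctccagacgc
Yars (chr4:129189895-129189924, plus strand): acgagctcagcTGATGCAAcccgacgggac
The match began 30 bases before the RefSeq start site in Gars and 15 bases before in Tars. It lay after the start site in Iars (position 8) and Yars (position 4). The E-box CACGTG, read the same on both strands, was in the windows of Iars, Tars, Farsb and Ears2 among others, and in 7.15% of all windows. A match of letters is a description and not evidence of binding.

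The libraries held between 16134786 and 18944173 normalized counts in total, and replicates of 1 group correlated at 0.95 to 0.978 (Pearson, log2 scale). The sorts could be followed in their markers. Mean Ccr7 was 147 to 779 in the early groups and 4641 to 12058 afterwards, and mean Cd4, at 8026 to 22113 in the early groups, was 153 to 259 in mature CD8SP. Macrophage markers (5 genes) summed to 109 to 257 in early OT-1 and to 46.9 to 105 in early TG6, and 4 of the 5 were called higher in OT-1 (15.4% of all genes tested), led by Csf1r, C1qa and Adgre1. They summed to 104 to 163 in late OT-1 against 56.3 to 57.6 in TG6 and 41.2 to 54.2 in F5, and to 119 to 144 in mature OT-1 against 59.1 to 93.5 and 57.4 to 73.8. NK markers (3 genes) summed to 67.4 to 101 in mature OT-1, 26.2 to 61.7 in mature TG6 and 2.48 to 6.72 in mature F5. Dendritic cell markers, of which 3 of 4 tested were called higher in early OT-1 than in early TG6 (15.4% of all genes tested), summed to 79.5 to 180 against 24.7 to 58.1 there. They summed to 35.9 to 43.9 in late OT-1 against 67.8 to 75.0 in late TG6, and in mature cells to 76.2 to 89.4 in OT-1 against 122 to 226 in TG6. Thymocyte markers (8 genes) summed to 138297 to 150593 in early TG6, 78180 to 90869 in early F5 and 42675 to 52153 in early OT-1, and erythroid markers to 89.2 to 197 in early TG6 and 196 to 707 in early OT-1. The part of these markers in the differences between lines was not tested. Stage markers also differed within the early gate. OT-1 minus TG6 was 2.43 ± 0.35 (adjusted p = 1.80e-05) for Ccr7, -1.41 ± 0.43 (adjusted p = 0.0176) for Cxcr4 and -1.46 ± 0.50 (adjusted p = 0.0319) for Cd4, and whether early OT-1 cells were further along than early TG6 cells was not tested. Replicate 3 of mature TG6 stood apart, and its effect on the counts of synthetase genes is given beside the mature results. Replicate 2 of mature F5 had a sum of cell division genes of 50620 against 17756 and 28524, and a cytosolic synthetase sum of 34247 against 29352 and 29089. Replicate 2 of late F5 had a cell division sum of 7884 against 747 and 678, and a cytosolic sum of 23761 against 24453 and 22463. The part of cell division in these F5 sums was not tested. In bulk samples of sorted cells, a change in the share of cells of 1 kind and a change in RNA per cell cannot be told apart.

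Among cytosolic genes the highest levels per kilobase of annotated exon were those of Gars, the glycine enzyme, at 560.3 normalized counts per kb (mean of the 9 group means), and Vars (valine) at 539. The gap between them was within the replicate spread of Vars (coefficient of variation 11.7%), and the first place changed with the group: Gars in early TG6 and in early and late OT-1, Vars in early F5 and in the mature groups, Farsb in late TG6 and Qars in late F5. Next on average came Kars (lysine) at 461, Hars (histidine) at 427, Dars (aspartate) at 426 and Farsb (a subunit of the phenylalanine enzyme) at 425. The lowest was Cars (cysteine) at 76.3, below Yars (tyrosine) at 136, Eprs (glutamate and proline) at 149 and Aars (alanine) at 155. Neighbours in this order such as Hars, Dars and Farsb lay closer than the 3.98% to 12.4% coefficient of variation that cytosolic members had within groups (median over groups, per gene). Mitochondrial genes were lower, with a median of 104 normalized counts per kb against 314 for the cytosolic genes. Lars2, the mitochondrial leucine enzyme, stood at 792 per kb, the highest of all 37, and the other 16 ran from 201 (Vars2) to 20.6 (Nars2). The classes overlapped, with Vars2, Hars2 (179) and Iars2 (171) above Aars, Eprs, Yars and Cars. In early TG6 Vars2 reached 546 per kb. These lengths join the exons of all annotated transcripts of a gene, and exons of 14 members overlap exons of another gene on the opposite strand, so that reads there could count for either. Hars and Hars2 share 195 bases in this way, and Aars also shares 1326 of its 9282 exon bases with Exosc6 on the same strand.

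**Figure D1:**
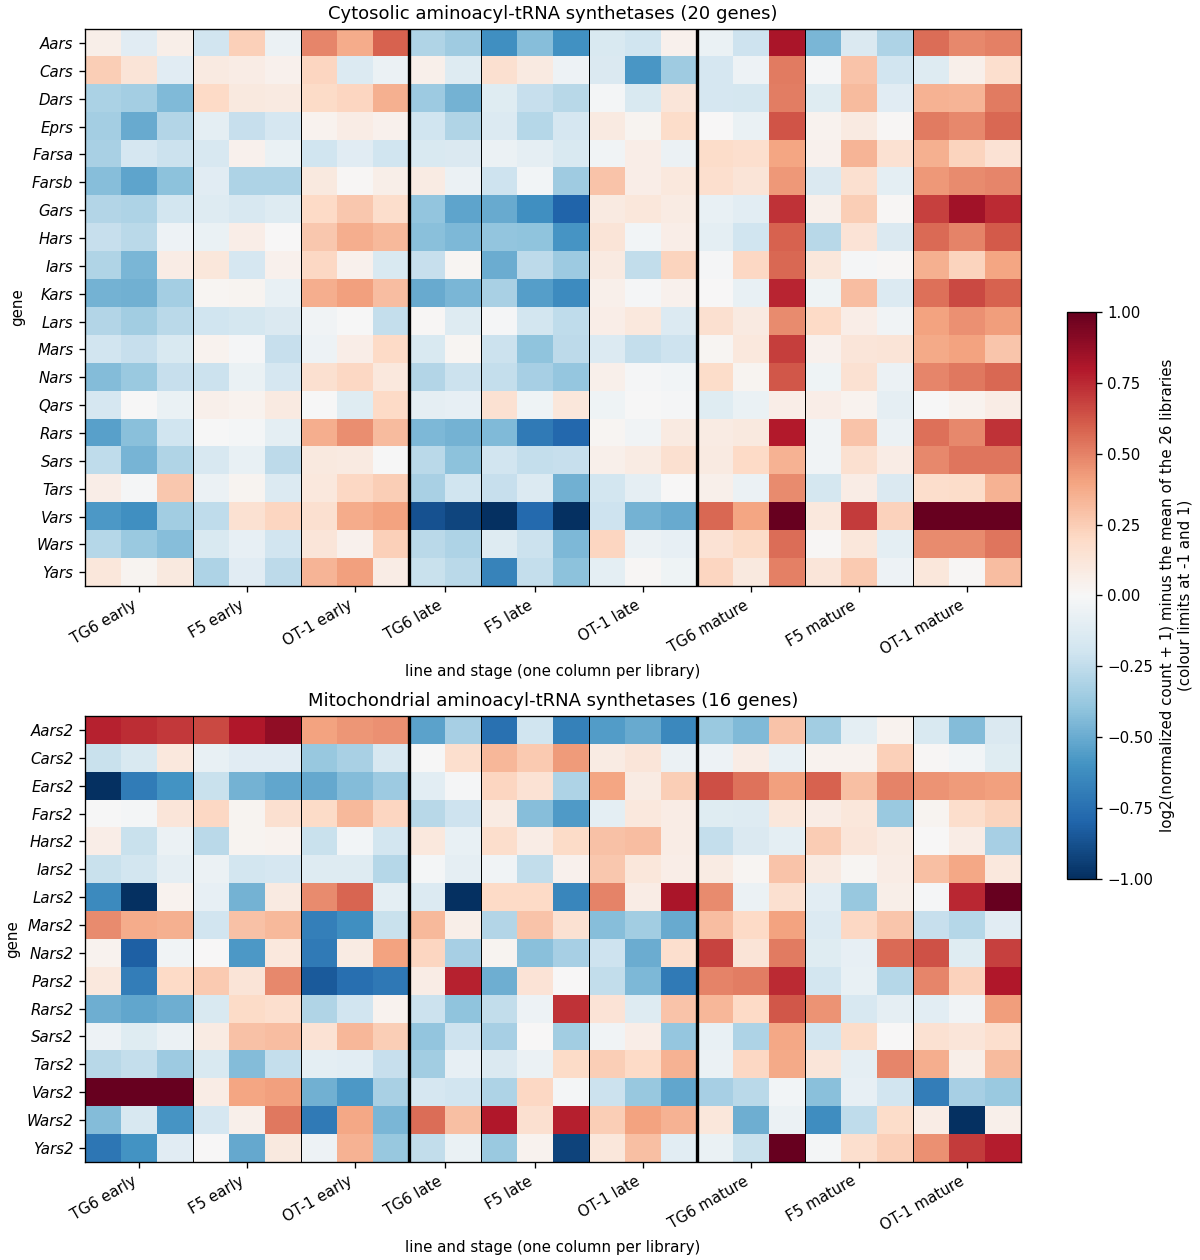
Level of 36 of the 37 synthetase genes in each of the 26 libraries, as log2(normalized count + 1) minus the mean of that gene over all libraries (colour, limits at -1 and 1; red is higher). Rows are genes and columns are libraries, grouped by line within early, late and mature stages; cytosolic rows are mostly red in mature OT-1 and in the last TG6 mature library, and Vars2 is red in the 3 early TG6 libraries.

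At early positive selection, OT-1 thymocytes had more RNA of many cytosolic synthetases than TG6 thymocytes. Of the 20 genes, 12 were called higher (60.0%) and 0 lower at an adjusted p under 0.05 (limma on log2(normalized count + 1), Benjamini-Hochberg over all genes tested), where 15.4% of all genes tested were called higher and 12.4% lower. The median log2 fold change of the 20 was 0.45, against -0.0022 for all genes tested, and 19 of the 20 were positive. Every OT-1 library lay above every TG6 library for 14 of the 20, against 25.1% of all genes tested. The 12 genes were, from the largest change, Vars, Kars, Rars, Dars, Farsb, Nars, Hars, Wars, Aars, Gars, Eprs and Sars, with log2 fold changes from 0.82 down to 0.40. Values after ± are standard errors for fold changes, with n = 3 libraries in each group and 2 in late TG6. Not called were Cars, Farsa, Iars, Lars, Mars, Qars, Tars and Yars, which ran from -0.078 (Cars) to 0.26 (Mars).

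Kars makes lysyl-tRNA and belongs to the multi-synthetase complex. At the early stage its normalized counts were 1444, 1435 and 1583 in TG6, 2031, 2044 and 1901 in F5, and 2583, 2671 and 2485 in OT-1. The 3 lines did not overlap, with F5 between the other lines. OT-1 exceeded TG6 by 0.80 ± 0.15 (adjusted p = 0.000409), a 1.74-fold difference. Late counts were 1411 and 1459 in TG6, 1601, 1369 and 1297 in F5, and 2077, 1989 and 2064 in OT-1, so that F5 lay with TG6 and OT-1 stood alone above them. The late difference from TG6 was 0.51 ± 0.17 (adjusted p = 0.0416), a call that was lost when the replicate number was taken as a block (adjusted p = 0.0768 as a random block). In mature CD8SP, Kars was at 2014, 1900.0 and 3400.2 in TG6, 1951, 2478 and 1828 in F5, and 2946, 3174 and 3011 in OT-1. The third TG6 library was the highest of these 9, and OT-1 minus TG6 was 0.37 ± 0.15 (adjusted p = 0.119).

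Gars, the glycine enzyme of cytosol and mitochondria and an ATF4 target, was called in OT-1 minus TG6 at all 3 stages, higher in OT-1 each time. Early values were 1382, 1365 and 1490.2 in TG6, 1549.8, 1518 and 1548 in F5, and 1941, 2043 and 1913 in OT-1. Late values were 1287 and 1175 in TG6, 1192, 1107 and 972 in F5, and 1800.2, 1834 and 1791 in OT-1, and mature values 1608, 1570.1 and 2802 in TG6, 1755, 2010.4 and 1711 in F5, and 2714, 3032 and 2842 in OT-1. OT-1 lay above both other lines at the early and late stages without overlap, while the third mature TG6 library fell inside the OT-1 range. The differences from TG6 were 0.48 ± 0.14 (adjusted p = 0.0163) early, 0.56 ± 0.16 (adjusted p = 0.021) late and 0.57 ± 0.14 (adjusted p = 0.0131) mature. The mature call was lost with the compared groups fitted alone, and without replicate 1 or 2 of mature TG6 or replicate 2 of mature OT-1.

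Hars, which charges histidine tRNA, behaved in the same direction at all 3 stages. It stood at 876, 851 and 993 in TG6, 981, 1074 and 1031 in F5, and 1239, 1319 and 1286 in OT-1 early, and at 767 and 751 in TG6, 779, 778 and 682 in F5, and 1119.9, 1009 and 1075 in OT-1 late. In the mature groups it was 961, 896 and 1544 in TG6, 846, 1129 and 927 in F5, and 1519, 1452 and 1567 in OT-1. Early and late OT-1 libraries lay above all others of their stage, and 1 mature TG6 library reached the OT-1 values. OT-1 minus TG6 was 0.50 ± 0.14 (adjusted p = 0.0116), 0.49 ± 0.16 (adjusted p = 0.0405) and 0.46 ± 0.14 (adjusted p = 0.0443) from early to mature. The late call was lost with the replicate number as a random block (adjusted p = 0.07).

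Sars, the serine enzyme, was the third gene called at all 3 stages, with smaller differences. Its counts were 1422, 1228 and 1375 in TG6, 1516, 1611 and 1418 in F5, and 1821, 1805 and 1692 in OT-1 early and 1406 and 1276 in TG6, 1488, 1438 and 1445 in F5, and 1755, 1792 and 1894 in OT-1 late. Mature counts were 1809, 1945 and 2164 in TG6, 1661, 1898 and 1787 in F5, and 2374, 2458 and 2457 in OT-1. OT-1 libraries were the highest 3 at each stage, with no overlap with TG6 at any of them. OT-1 exceeded TG6 by 0.40 ± 0.082 (adjusted p = 0.000851) early, 0.44 ± 0.091 (adjusted p = 0.00206) late and 0.30 ± 0.082 (adjusted p = 0.0206) mature. The mature calls of Sars and Hars were lost in the same fits as that of Gars.

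Vars, the valine enzyme of the cytosol, had the largest early difference between OT-1 and TG6. It was at 1830.1, 1784 and 2142 in TG6, 2295, 3039 and 3164 in F5, and 3050.2, 3525 and 3612 in OT-1. OT-1 lay above TG6 in all libraries, and F5 overlapped the lower end of OT-1. OT-1 minus TG6 was 0.82 ± 0.19 (adjusted p = 0.00237), and F5 minus TG6 was 0.55 ± 0.19 (adjusted p = 0.0876). Rars, which charges arginine tRNA within the complex, was at 655, 717 and 834 in TG6, 953, 947 and 895 in F5, and 1232, 1325 and 1191 in OT-1 and differed by 0.77 ± 0.15 (adjusted p = 0.000547). Farsb and Farsa encode the subunits of 1 enzyme, yet Farsb was called (0.51 ± 0.10, adjusted p = 0.000912) and Farsa was not (0.061 ± 0.089, adjusted p = 0.647), a contrast between them that was not tested.

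**Figure D2:**
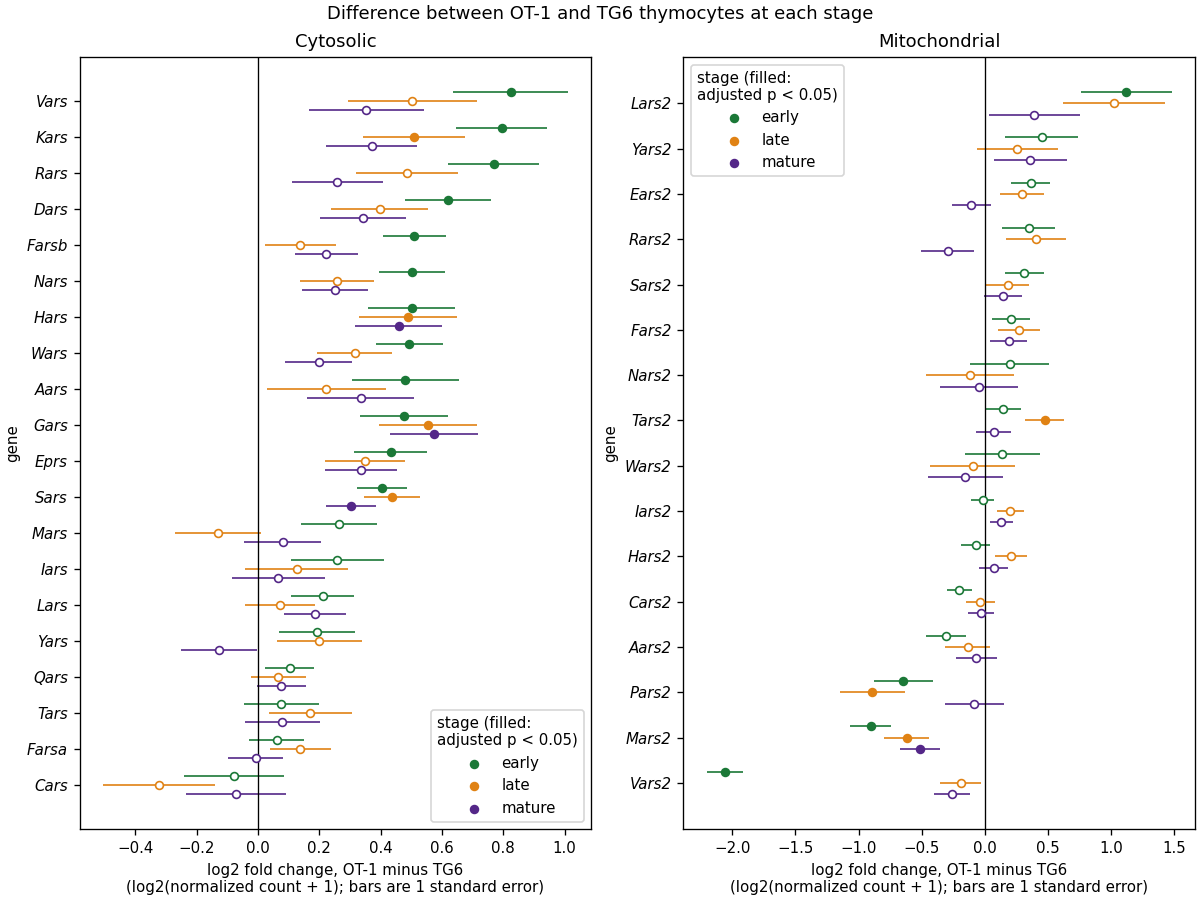
Log2 fold change of OT-1 minus TG6 for 36 synthetase genes (points, bars 1 standard error) at the early, late and mature stages, cytosolic genes left and mitochondrial genes right, filled where the adjusted p was under 0.05. The 12 early cytosolic calls lie between 0.40 and 0.82, and Vars2 lies at -2.06 early against -0.19 late and -0.26 mature.

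Fewer cytosolic genes were called between OT-1 and TG6 at the later stages. At the late stage 4 were called higher (Gars, Hars, Kars, Sars) and 0 lower, where 9.34% of all genes tested were called higher and 6.21% lower. The median was 0.24 and 18 of 20 were positive, and every OT-1 library lay above every TG6 library for 15 of the 20 against 27.8% of all genes. Late TG6 had 2 libraries. With the replicate number as a random or fixed block 2 were called, leaving out replicate 1 or 2 of late OT-1 or replicate 1 of late TG6 left 1, leaving out replicate 3 of late OT-1 left 2, and leaving out replicate 2 of late TG6 left 0. With the 2 groups fitted alone 8 were called (14.3% of all genes). In mature CD8SP 3 were called higher (Gars, Hars, Sars) and 0 lower, against 4.67% and 5.08% of all genes, with a median of 0.24, and 0 with the 2 groups fitted alone (0.997%). OT-1 and TG6 libraries did not overlap for Sars and Farsb, higher in OT-1, where 10.7% of all genes were higher and 11% lower without overlap. Without replicate 3 of mature TG6, every OT-1 library lay above every TG6 library for 17 of the 20 (28.9% of all genes). The difference between the mature and the early contrast was called for 0 of the 20 cytosolic genes, with limma adjusted p from 0.234 to 0.997 and 1 at an unadjusted p under 0.05, where 1.28% of all genes tested were called as higher and 2.91% as lower.

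The mature comparison turned on replicate 3 of mature TG6. In that library the 20 cytosolic genes summed to 45882 normalized counts, against 31275 and 30513 in the other 2 libraries of the group. It lay above both of them for 20 of 20 cytosolic genes, where 40.8% of all genes tested did, with a median difference of 0.57 on the log2 scale. The sum of 12 cell division genes was 62808 in it against 16410.1 and 17984. It also had the highest sums of its group for dendritic cell markers, at 226 where the lowest library had 122, for macrophage markers, at 93.5 where the lowest had 59.1, and for CD4 lineage and regulatory markers, at 1182 where the lowest had 479.8. The CD4 lineage sum reached 1241 in mature F5. Its sums were the lowest of its group for thymocyte markers (59450, highest 75426) and NK markers (26.2, highest 61.7). For B cell, thymic epithelium and erythroid markers it lay between the other libraries of the group. The part of these in its synthetase values was not tested. Without this library, OT-1 exceeded TG6 with a call for 14 of 20 cytosolic genes (15% of 16339 genes tested), and the median of the 20 was 0.35. Gars then differed by 0.85 ± 0.087 (adjusted p = 9.43e-07), Hars by 0.70 ± 0.10 (adjusted p = 5.91e-05), Kars by 0.64 ± 0.10 (adjusted p = 0.000152) and Sars by 0.37 ± 0.082 (adjusted p = 0.00206). Leaving out replicate 1 or 2 of mature TG6, or replicate 2 of mature OT-1, left 0, and leaving out replicate 3 of mature OT-1 left 1.

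F5 lay between the other lines at the early stage. Early group means increased from TG6 to F5 to OT-1 for 15 of 20 cytosolic genes, where 24.8% of all genes tested did. The same order held for 5 of 20 at the late stage (20.1% of all genes) and for 1 of 20 in mature cells (12.6%). Without replicate 3 of mature TG6 it held for 8 of 20 in mature cells (22% of all genes): Dars, Eprs, Farsa, Gars, Hars, Kars, Mars and Qars. Sums of the cytosolic genes were 24683 ± 1105 in early TG6, 28527 ± 518 in early F5 and 33258 ± 341 in early OT-1 (mean ± SD, n = 3). Late sums were 24015 ± 267 (n = 2), 23559 ± 1010.2 and 29119 ± 830.3 (n = 3), and mature sums were 35890.2 ± 8662, 30896 ± 2905 and 42064 ± 874 in the same order of lines (n = 3).

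Against F5, OT-1 had 1 cytosolic gene called higher at the early stage, Yars, where 7.81% of all genes were. Yars, the tyrosine enzyme, was at 869.7, 819 and 858 in TG6, 648, 741 and 669 in F5, and 1016, 1065 and 845 in OT-1, so that F5 was the lowest line for this gene, and OT-1 minus F5 was 0.50 ± 0.12 (adjusted p = 0.00858). The count was 0 without replicate 2 of early OT-1 and 2 without replicate 1 of early F5. With these groups fitted alone it was 7 (11.2% of all genes), the added genes being Aars, Gars, Hars, Kars, Nars and Rars. At the late stage 9 of 20 were called (13.6% of all genes), namely Farsb, Gars, Hars, Kars, Nars, Rars, Sars, Vars and Yars, from 0.32 to 0.73. Leaving out replicate 3 of late F5 left 3. In mature CD8SP 12 were called higher (13.3% of all genes), from 0.35 for Lars to 0.82 for Aars, the others being Eprs, Farsb, Gars, Hars, Kars, Nars, Rars, Sars, Vars and Wars. None of the 20 was called lower in OT-1 than in F5 at any stage, where 4.88%, 10.4% and 10.1% of all genes were at the early, late and mature stages. Cars was called lower in late OT-1 with total scaling (-0.505, limma adjusted p = 0.0256), quantile normalization (-0.474, adjusted p = 0.0276) and without replicate 1 of late OT-1 (-0.534, adjusted p = 0.0461). Between F5 and TG6, 1 cytosolic gene was called higher at the early stage, Dars (0.50 ± 0.14, adjusted p = 0.0368), against 3.12% of all genes, and this call was lost on leaving out any 1 of the 6 libraries. In limma 0 were called at the late and mature stages, against 1.75% and 2.14% of all genes higher, and 0 and 5 of the 20 had an unadjusted p under 0.05 in either direction. Leaving out 1 mature library gave calls lower in F5, where 4.5% of all genes were lower in the full set: Farsb without replicate 2 of F5, and Aars and Nars without replicate 2 of TG6. The comparisons of OT-1 with TG6 and with F5 share the OT-1 libraries, and those of OT-1 and of F5 with TG6 share the TG6 libraries.

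Cell division genes moved with part of these differences. Their 12-gene sum ran from 42565 to 46019.5 in early TG6, from 62850.4 to 82302 in early F5 and from 60114 to 87312 in early OT-1. At the early stage limma called 0 of the 12 between OT-1 and TG6 (15.4% of all genes higher and 12.4% lower), with 0 at an unadjusted p under 0.05. All 9 groups share 1 estimate of the spread in that fit, and the sum ran from 678 to 7884 within late F5 and from 16410 to 62808 within mature TG6. The 0 calls therefore cannot show that early OT-1 and TG6 were alike in these genes. In the 12-gene sum every early TG6 library lay below every early F5 and OT-1 library, while early F5 and OT-1 overlapped. Late OT-1 had 8 of the 12 called above late TG6 (9.34% of all genes), and mature OT-1 1 of the 12 above mature TG6 (4.67%). In mature cells the sum ran from 67949 to 77497 in OT-1 and from 17756 to 50620.4 in F5. The part of cell division in the differences between lines was not tested.

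From the late to the mature stage, cytosolic synthetase genes were called higher and none lower, with Vars the furthest in each line. Called higher were 13 of 20 in TG6 (14.5% of all genes tested), 9 in F5 (12.2%) and 15 in OT-1 (14%), with 0 lower in each, where 7.79%, 8.31% and 10.4% of all genes were lower. With the groups of each comparison fitted alone the counts were 1 in TG6 (4.56% of all genes), 3 in F5 (7.46%) and 15 in OT-1 (18.8%). Group means were higher at the mature stage for all 20 in TG6 and OT-1 and for 18 in F5, the exceptions being Cars and Qars, where 51.5%, 47.8% and 48.2% of all genes were higher. Without replicate 3 of mature TG6 the count in TG6 was 18 (52.1% of all genes), with Cars and Qars again the exceptions. Farsa, Gars, Kars, Nars, Rars, Sars and Vars were called in all 3 lines, 35.0% of the 20 against 6.56% of all genes, and these 7 were also called without replicate 3 of mature TG6 (5.53%). Without replicate 3 of mature TG6, 8 were called in TG6, without either late TG6 library 7 and 6, and in F5 4 without replicate 2 of mature F5 and 5 without replicate 3 of late F5. Late values of Vars were 1489.8 and 1443 in TG6, 1293, 1595 and 1119 in F5, and 2369.8, 1966 and 1928 in OT-1. In mature cells they were 4056, 3593 and 6672 in TG6, 2939, 4437 and 3204 in F5, and 5707, 5935 and 5993 in OT-1, so that each line rose without overlap. The change was 1.65 ± 0.21 (adjusted p = 8.26e-06) in TG6, 1.39 ± 0.19 (adjusted p = 1.63e-05) in F5 and 1.50 ± 0.19 (adjusted p = 1.09e-05) in OT-1. Rars was at 701 and 689 in TG6, 705, 586 and 555 in F5, and 968, 935 and 1022 in OT-1 late and at 1016, 1024 and 1663 in TG6, 933, 1166 and 918 in F5, and 1400.0, 1338 and 1582 in OT-1 mature, a change of 0.79 ± 0.17 (adjusted p = 0.00152) in TG6. Gars rose by 0.74 ± 0.14 (adjusted p = 0.000618) in F5, from the late and mature values given above.

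From the early to the late stage, cytosolic calls were fewer, and in OT-1 and TG6 their share was under that of all genes. In F5 6 of 20 cytosolic genes were lower at the late stage (Aars, Gars, Hars, Kars, Rars, Vars) and 0 higher, where 14% of all genes were lower and 12.7% higher. The count was 2 without replicate 3 of late F5 and 3 without replicate 2 of early F5. In OT-1 2 were lower (Aars, Vars) and 0 higher, against 14% and 12.7%, and 1 was called without replicate 1 or 2 of late OT-1. With the replicate number as a block, random or fixed, 6 were called lower in OT-1, the added genes being Kars, Rars, Tars and Yars. In TG6 0 were lower and 1 higher, Farsb, where 13.3% and 12.1% of all genes were, and with the block 3 were called: Farsb and Lars higher and Tars lower. The TG6 count was 0 without replicate 1 of late TG6 and 2 without replicate 2 of early TG6. With the groups of each comparison fitted alone, 8 were lower in F5 (14.4% of all genes), 6 in OT-1 (17.5%) and 4 in TG6 (18.5%), with Farsb higher in TG6. Whether the step differed between lines was not tested. Vars fell by 1.09 ± 0.19 (adjusted p = 0.000148) on the log2 scale in F5 and by 0.70 ± 0.19 (adjusted p = 0.00755) in OT-1, and in TG6 the change was -0.38 ± 0.21 (adjusted p = 0.205). Farsb in TG6 went from 816, 757 and 821 to 1159 and 1051, a change of 0.47 ± 0.12 (adjusted p = 0.00412), while in F5 it was at 1011, 882 and 882 and then at 946, 1074 and 856. In OT-1 Farsb was at 1169.7, 1102 and 1136, then at 1330.5, 1143 and 1179. Mature Farsb values were 1227, 1199 and 1474 in TG6, 992, 1221 and 1019.8 in F5, and 1477, 1519.9 and 1538 in OT-1. All 12 cell division genes were called lower at the late than at the early stage and higher at the mature than at the late stage in each line, where 13.3% to 14% of all genes were lower and 12.2% to 14.5% higher, and their part in the moves of the synthetase genes was not tested.

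**Figure D3:**
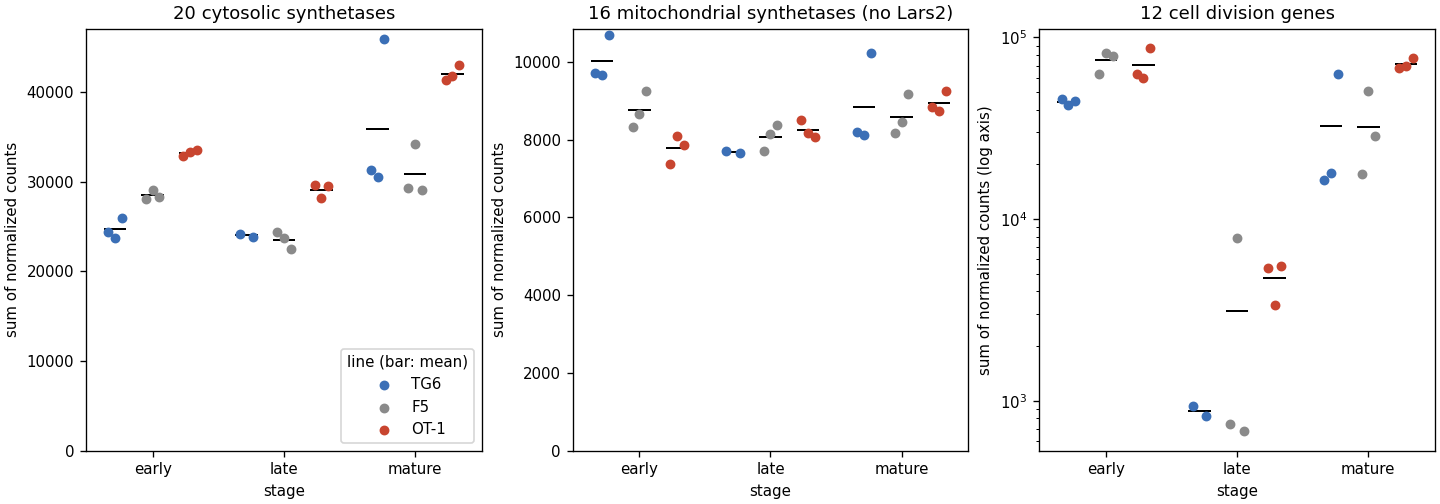
Sums of normalized counts in each library (points, bars are group means) for the 20 cytosolic synthetase genes, for 16 mitochondrial synthetase genes without Lars2, and for 12 cell division genes (log axis), by stage and line. Cytosolic sums are lowest at the late stage in F5 and OT-1 and highest in mature OT-1 and in 1 mature TG6 library, where the cell division sum is also high, while mitochondrial sums run from 7373 to 10678.

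Mitochondrial synthetase genes were called in both directions between the lines. At the early stage 1 of 17 was called higher in OT-1 than in TG6 (Lars2) and 3 lower (Vars2, Mars2, Pars2), against 15.4% and 12.4% of all genes, with a median of 0.15. Every OT-1 library lay above every TG6 library for 6 of the 17 and below for 4, against 25.1% and 21.6% of all genes. Pars2 was lost with the random block. Leaving out replicate 2 of early OT-1 left 2 calls. At the late stage Tars2 was called higher and Mars2 and Pars2 lower, against 9.34% and 6.21%, and in mature cells Mars2 was lower and 0 were higher, against 5.08% and 4.67%. Of the 3 late calls, 1 was left without replicate 1 of late OT-1 or of late TG6 and 0 without replicate 3 of late OT-1 or replicate 2 of late TG6, and in mature cells leaving out any mature library but replicate 3 of TG6 left 0. Without that library Mars2 was not called and Yars2 was called higher in OT-1.

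Vars2, the mitochondrial valine enzyme, showed the widest difference of any member. Its early counts were 2664, 2844 and 3442 in TG6, 1027, 1283 and 1294 in F5, and 701, 656 and 777 in OT-1. TG6 was the highest line and OT-1 the lowest, with no overlap among the 3. OT-1 was lower than TG6 by 2.06 ± 0.14 (adjusted p = 7.27e-10) on the log2 scale, F5 was lower than TG6 by 1.31 ± 0.14 (adjusted p = 1.79e-06), and OT-1 was lower than F5 by 0.75 ± 0.14 (adjusted p = 0.000985). Late counts were 869 and 853 in TG6, 788, 1124 and 962 in F5, and 842, 749.8 and 679.6 in OT-1. Mature counts were 776, 810.1 and 956 in TG6, 731, 919 and 854 in F5, and 603, 774 and 752 in OT-1. OT-1 still lay below TG6 without overlap at both later stages, with F5 overlapping both lines, and OT-1 minus TG6, not called, was -0.19 ± 0.16 (adjusted p = 0.461) late and -0.26 ± 0.14 (adjusted p = 0.263) mature. In TG6 Vars2 fell by 1.78 ± 0.16 (adjusted p = 3.24e-08) from early to late. The difference of the OT-1 and TG6 contrast between the mature and early stages was 1.80 ± 0.20 (adjusted p = 1.36e-05), the only one of the 37 members called in that test, and 1.89 without replicate 3 of mature TG6.

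Gtf2h4, which encodes a subunit of the transcription factor TFIIH, is the neighbour of Vars2 and was looked up after the Vars2 values were seen. Both lie on the minus strand of chromosome 17 (GRCm38, GENCODE vM21), Vars2 at chr17:35655634-35667592 and Gtf2h4 at chr17:35667730-35673739, so that 137 bases separate the end of Gtf2h4 from the start of Vars2. Gtf2h4 had early counts of 5782, 6248 and 7771 in TG6, 1245, 1451 and 1370.2 in F5, and 637, 747 and 704 in OT-1. Its order of lines was that of Vars2, with a wider range, and OT-1 minus TG6 was -3.24 ± 0.35 (adjusted p = 5.60e-07). Late counts were 288 and 282 in TG6, 177, 347 and 224 in F5, and 223, 197 and 238 in OT-1. Mature counts were 405, 333 and 1596 in TG6, 296, 422 and 368 in F5, and 384, 335 and 412 in OT-1, with the third TG6 library above the rest. Whether reads from Gtf2h4 transcripts were counted for Vars2 was not tested. The antisense gene Gm20483, which overlaps Vars2 exons by 465 of 5460 bases, had a group mean of at most 10.2. Vars (chr17:35000987-35016322), Vars2 and Gtf2h4 all lie on the chromosome that carries the H2 genes, for which TG6 mice differed from the other lines. Whether this had a part in their values was not tested.

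**Figure D4:**
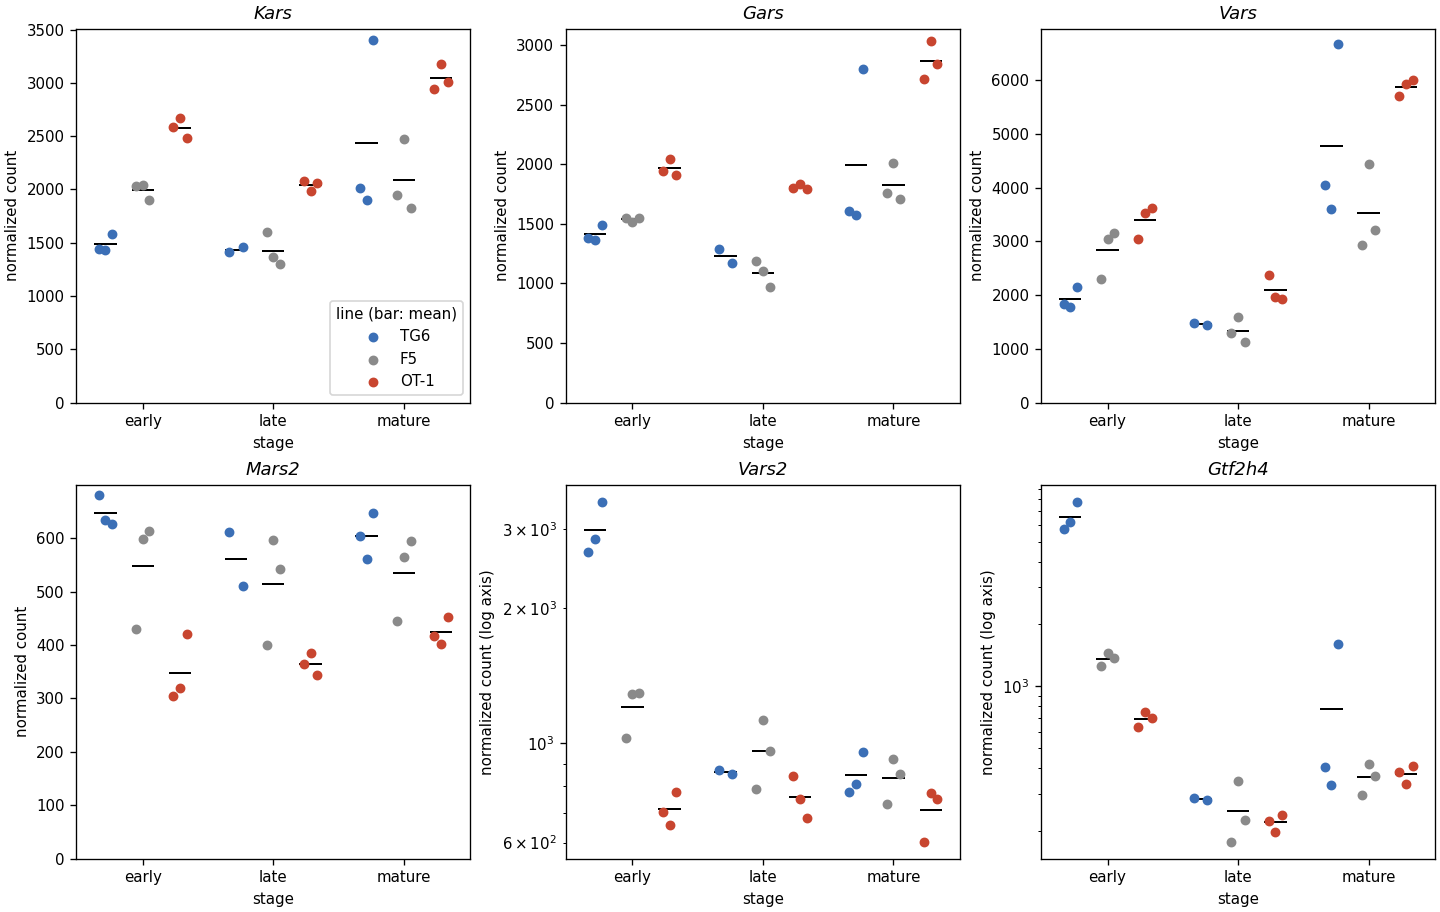
Normalized counts of 5 synthetase genes and of Gtf2h4, the neighbour of Vars2, in each library (points; bars are group means) by stage and line, with log axes for Vars2 and Gtf2h4. Kars and Gars are higher in OT-1 at the early and late stages, Vars is lowest at the late stage, Mars2 is lower in OT-1, and Vars2 and Gtf2h4 are highest in early TG6, at 2664 to 3442 and 5782 to 7771.

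Mars2, the mitochondrial methionine enzyme, was the mitochondrial gene called in OT-1 minus TG6 at all 3 stages, lower in OT-1. Early values were 681, 634 and 626 in TG6, 429.6, 599 and 613 in F5, and 305, 320.3 and 420.0 in OT-1. Late values were 612 and 511 in TG6, 400.3, 597 and 543 in F5, and 364, 385 and 345 in OT-1, and mature values were 605, 561 and 648 in TG6, 445, 565 and 595 in F5, and 418, 402 and 452 in OT-1. OT-1 lay below TG6 without overlap at each stage, and F5 lay between them at the early stage and overlapped TG6 afterwards. OT-1 was lower by 0.91 ± 0.16 (adjusted p = 0.000223) early, by 0.62 ± 0.18 (adjusted p = 0.0219) late and by 0.51 ± 0.16 (adjusted p = 0.0463) mature on the log2 scale, and the mature call was lost on leaving out any 1 of the 6 libraries. Its cytosolic counterpart Mars, the methionine enzyme of the complex, was not called at any stage in that comparison, but was called higher in mature OT-1 without replicate 3 of mature TG6 (log2 difference 0.29, limma adjusted p = 0.0257).

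Pars2, the mitochondrial proline enzyme, was lower in OT-1 than in TG6 at the early and late stages. It was among the lowest members, at 133, 76.3 and 142 in TG6, 149, 136 and 173 in F5, and 68.8, 72.8 and 74.8 in OT-1 early and 130.0 and 212 in TG6, 87.8, 136 and 124 in F5, and 104, 90.6 and 75.2 in OT-1 late. OT-1 lay below TG6 without overlap at both stages, although 1 early TG6 library was close to the OT-1 values. The differences were -0.64 ± 0.23 (adjusted p = 0.0425) and -0.89 ± 0.26 (adjusted p = 0.0228). In mature cells it was at 175, 177 and 209 in TG6, 109, 117 and 102 in F5, and 174, 145 and 216 in OT-1, where OT-1 and TG6 overlapped, F5 was lower than TG6 by 0.77 ± 0.23 (adjusted p = 0.0495), a call lost with either block and on leaving out any 1 of the 6 libraries, and the OT-1 step from late to mature was 0.97 ± 0.23 (adjusted p = 0.00415).

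Lars2 varied widely between replicates. Early values were 5323, 2373 and 8450.2 in TG6, 7790.2, 5969.9 and 8789 in F5, and 11494, 12387 and 7743 in OT-1, and late values 7539 and 4143 in TG6, 9481, 9482 and 5272 in F5, and 11658, 8700.3 and 14569 in OT-1. Mature values were 11479.8, 7949.9 and 9225 in TG6, 7675, 6345 and 8628 in F5, and 8187, 13950.1 and 16696 in OT-1. The largest ratio between libraries of 1 group was 3.56-fold, and early OT-1 and TG6 overlapped even though the difference of 1.12 ± 0.36 (adjusted p = 0.0245) was called. Tars2, the mitochondrial threonine enzyme, was at 795, 815 and 749.6 in TG6, 868, 714 and 816 in F5, and 899.8, 894 and 823 in OT-1 early and 759 and 912 in TG6, 871, 923 and 1098 in F5, and 1144, 1105 and 1229 in OT-1 late. All 3 late OT-1 libraries lay above late TG6, by 0.48 ± 0.15 (adjusted p = 0.0391), a call lost with the fixed block (adjusted p = 0.0516). Mature Tars2 values were 926, 1112 and 1252 in TG6, 1047, 903 and 1354 in F5, and 1242, 1006 and 1201 in OT-1, with the lines overlapping.

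Between OT-1 and F5, 3 mitochondrial genes were lower in OT-1 at the early stage (Mars2, Pars2, Vars2) against 4.88% of all genes, and 0 were higher. Later, 2 were lower at the late stage (Cars2, Mars2; 1 with the random block, and 0 on leaving out any library but replicate 1 of F5), against 10.4%. In mature cells 1 was higher (Pars2; 0 with the random block or without replicate 1 or 3 of either line), against 13.3%. F5 minus TG6 had 1 lower gene early (Vars2, against 3.35%), 0 late (3.23%) and 1 lower in mature cells (Pars2, against 4.5%), with 0 higher at each stage.

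Across stages the mitochondrial genes moved one by one. From early to late, 1 was called higher and 2 lower in TG6, 2 higher and 4 lower in F5, and 5 higher and 2 lower in OT-1, where 12.1% to 12.7% of all genes were higher and 13.3% to 14% lower. The 6 calls in F5 became 3 without replicate 1 or 3 of late F5 or replicate 2 of early F5, and 2 without replicate 3 of early F5. The 7 in OT-1 became 2 without replicate 1 of late OT-1, 3 without replicate 2 of late or replicate 3 of early OT-1, and 4 without replicate 1 of early OT-1. Aars2, the alanine enzyme, was lower at the late stage in all 3 lines. Its early values were 1073, 1049.6 and 1025 in TG6, 994, 1097 and 1161 in F5, and 831, 853 and 862 in OT-1, and its late values 433 and 498 in TG6, 373, 546 and 393 in F5, and 425, 442 and 401 in OT-1. The fall cleared the spread in each line, at 1.17 ± 0.18 (adjusted p = 3.35e-05) in TG6, 1.33 ± 0.16 (adjusted p = 2.66e-06) in F5 and 1.00 ± 0.16 (adjusted p = 8.94e-05) in OT-1 on the log2 scale. Mature values of Aars2 were 484, 461 and 764 in TG6, 492, 585 and 643 in F5, and 565, 465 and 567 in OT-1, and no line was called between late and mature.

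Ears2, the glutamate enzyme, rose from early to late in all 3 lines. It was at 91.8, 123 and 132 in TG6, 171, 144 and 139 in F5, and 139.9, 147 and 155 in OT-1 early, 186 and 198 in TG6, 232, 221 and 161 in F5, and 262, 211 and 236 in OT-1 late and 313, 291 and 265 in TG6, 301, 246 and 282 in F5, and 273, 268 and 266 in OT-1 mature. The lowest stage was the early stage in each line. The rise was 0.74 ± 0.17 (adjusted p = 0.00249) in TG6, 0.42 ± 0.16 (adjusted p = 0.0476) in F5 and 0.68 ± 0.16 (adjusted p = 0.00246) in OT-1. Cars2, the cysteine enzyme, rose in F5 (0.44 ± 0.10, adjusted p = 0.00243) and OT-1 (0.34 ± 0.10, adjusted p = 0.0173), from 440.4, 462 and 554 in TG6, 487, 475 and 475 in F5, and 395, 409.7 and 459 in OT-1 early to 512 and 578 in TG6, 646, 617 and 689.8 in F5, and 545, 558 and 494 in OT-1 late. Late F5 was the highest group. Mature Cars2 was at 496, 541 and 488 in TG6, 528, 527 and 606 in F5, and 518, 505 and 472 in OT-1. Hars2 and Tars2 rose in OT-1, Hars2 from 650.0, 743 and 666 to 932, 938 and 799 (0.37 ± 0.12, adjusted p = 0.0201) and Tars2 by 0.41 ± 0.14 (adjusted p = 0.031). In the other lines Hars2 was at 793, 648 and 727 early and 818 and 719 late in TG6, and at 630.1, 772 and 777 and 855, 797 and 865 in F5. Mature Hars2 counts were 644, 686 and 709 in TG6, 904, 825 and 805 in F5, and 760.0, 797 and 601 in OT-1. Iars2, the isoleucine enzyme, also rose in OT-1 (0.33 ± 0.094, adjusted p = 0.0121), and Fars2 and Sars2 fell in F5 with Aars2.

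From late to mature, 3 mitochondrial genes were called higher in TG6 (among them Ears2 and Rars2; 1 without replicate 3 of mature TG6), 2 in F5 (among them Ears2; 4 with the random block) and 2 in OT-1 (among them Pars2), with 0 lower, against 14.5%, 12.2% and 14% of all genes higher. In TG6 Ears2 changed by 0.59 ± 0.17 (adjusted p = 0.0173) and Rars2 by 0.70 ± 0.24 (adjusted p = 0.0396). The Rars2 call was lost with the fixed block (adjusted p = 0.0597) and without any 1 of 4 of the 5 libraries, replicate 2 of mature TG6 being the exception. Leaving out replicate 1 or 2 of late TG6 left 1 or 0 in TG6, leaving out replicate 2 or 3 of mature F5 left 1 and replicate 3 of late F5 left 0 in F5, and leaving out replicate 3 of mature or replicate 2 of late OT-1 left 1 in OT-1. Summed over the 16 genes other than Lars2, mitochondrial counts were 10012 ± 577 in early TG6, 8752 ± 469 in early F5 and 7771 ± 362 in early OT-1 (mean ± SD, n = 3). This order rested on Vars2, whose early means were 2983, 1201 and 711. Without Vars2 too, the sums were 7029 ± 211, 7550.4 ± 362 and 7059.6 ± 376, so the order was not kept, and those of TG6 and OT-1 differed by less than their SDs.

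Subsets of the cytosolic genes were drawn from textbook roles. Of the 8 genes of the multi-synthetase complex, 4 were called higher in early OT-1 than in TG6 (Dars, Eprs, Kars, Rars), with a median of 0.35, where 15.4% of all genes tested were called higher in that comparison. Against the same 15.4%, outside the complex 8 of 12 were called, with a median of 0.48. Among the 12 ATF4 targets 6 were called (Aars, Eprs, Gars, Nars, Sars, Wars), with a median of 0.33, and among the 8 others 6 (Dars, Farsb, Hars, Kars, Rars, Vars), with a median of 0.56. Of the 5 genes with the ATF4 letters in their window, 2 were called, Gars among them, and Iars, Tars and Yars were not. No test was made of these differences between subsets.

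Other genes of tRNA charging and protein synthesis are given by list, with lists drawn up while earlier results of these data were known. Of the scaffold genes, Aimp1 (0.41 ± 0.12, adjusted p = 0.0126) and Aimp2 (0.45 ± 0.15, adjusted p = 0.0243) were called higher in early OT-1 than in TG6 and Eef1e1 was not. Of 7 genes of elongation and tRNA delivery 6 were called higher, with a median of 0.72, where 15.4% of all genes were. Eef1a1, which brings charged tRNA to the ribosome, was at 76112, 71739 and 70318 in early TG6 and at 149502, 158525 and 133798 in early OT-1, a difference of 1.02 ± 0.094 (adjusted p = 5.01e-08). Its exchange factor subunits Eef1b2 (1.01 ± 0.087, adjusted p = 1.91e-08) and Eef1g (0.97 ± 0.083, adjusted p = 1.95e-08) moved by similar amounts. Xpot, which exports tRNA from the nucleus, was at 676, 683 and 683 in TG6, 905, 817 and 845 in F5, and 1048, 1020.1 and 1019 in OT-1, and OT-1 minus TG6 was 0.60 ± 0.15 (adjusted p = 0.00647). Late OT-1 also had 6 of 7 called higher (9.34% of all genes), and in mature cells limma called 0 of 7 (4.67%), with 2 at an unadjusted p under 0.05. The difference of the contrast between the mature and early stages was called lower for 4 of the 7, against 2.91% of all genes tested.

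The counts that follow for early OT-1 minus TG6 stand against 15.4% of all genes tested called higher and 12.4% lower. Genes of tRNA processing were called higher in 10 of 24 tested, 0 lower (median 0.43), led by Pus7 (1.19 ± 0.19, adjusted p = 7.77e-05), a pseudouridine synthase, and Tsen54, a subunit of the tRNA splicing endonuclease. RNA polymerase III and its factors, which transcribe tRNA genes, had 4 of 21 higher and 3 lower, shares near those of all genes, with Brf1 the largest at -0.50 ± 0.10 (adjusted p = 0.000534). Among 13 genes of mitochondrial tRNA charging and elongation 4 were higher and 2 lower, among 7 editing and related enzymes 1 was higher (Aarsd1), and among 8 eIF2 kinases, phosphatases and related genes 1 was higher (Eif2s1; 2 with the block). Amino acid transporters had 5 of 13 higher, led by Slc7a5, Slc7a1 and Slc3a2, and 2 lower, Slc7a11 and Slc43a1.

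Of 25 ATF4 response genes 21 were tested, and 9 were higher in early OT-1 than in TG6 and 1 lower, with a median of 0.66, against 15.4% and 12.4% of all genes. The largest differences were those of Atf3, Asns and Psat1, and Vldlr was lower. Asns, asparagine synthetase, was listed at 0 in the 3 early TG6 libraries and at 3.81 to 20.2 in early OT-1, near the floor of the table. Psat1, of serine synthesis, differed by 1.52 ± 0.23 (adjusted p = 4.31e-05). Atf4 itself was at 1909, 2074 and 2262 in TG6, 2366, 1786 and 1676 in F5, and 2898, 3589 and 2525 in OT-1 at the early stage, a difference of 0.52 ± 0.22 (adjusted p = 0.0833) that missed the threshold. Myc, a regulator of growth, was at 282, 318 and 144 in TG6, 398, 529 and 465 in F5, and 226, 367 and 400.4 in OT-1, with TG6 and OT-1 overlapping, and OT-1 minus TG6 was 0.45 ± 0.35 (adjusted p = 0.358). At the late stage 5 of the 21 response genes were higher and 1 lower, against 9.34% and 6.21% of all genes. In mature cells 2 were higher and 0 lower, against 4.67% and 5.08%.

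The same lists were counted from early to late in TG6, where 1 of 20 cytosolic synthetase genes was called and 12.1% of all genes were higher and 13.3% lower. Of 7 elongation genes 3 were higher and 0 lower, led by Eef1g (0.64 ± 0.093, adjusted p = 1.76e-05), and of 24 tRNA processing genes 7 were higher and 0 lower, led by Trmt61a (1.49 ± 0.23, adjusted p = 3.32e-05). Of 21 ATF4 response genes 2 were higher (Pck2, Shmt2) and 5 lower, Cebpb the most. Among transporters 3 of 13 were lower (Slc43a1, Slc7a11, Slc38a1). Atf4 (-0.21 ± 0.24, adjusted p = 0.603), Myc (0.92 ± 0.39, adjusted p = 0.0937) and Xpot (0.017 ± 0.17, adjusted p = 0.962) were not called.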

How the data were processed

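Thymocytes of 3 receptor transgenic mouse lines were sorted at 3 stages and sequenced as 26 RNA libraries. Per the labels and the submitters' processing notes, the authors used Trimmomatic 0.32 for trimming, Bowtie2 2.3.2 for alignment (build mm10), RSEM 1.2.31 for expected counts per gene and DESeq2 for normalization. The deposited signal values are normalized read counts scaled by size factors, not whole reads, so no count model was used. The paper states an overall read depth, but that of each library is known here only as the normalized total. Strandedness is not given in the sources used here.

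Genes with at least 10 normalized counts in at least 2 libraries were fitted as log2(value + 1) on 9 group means with limma 3.58.1 (R 4.3.3, trended prior variance, 17 residual degrees of freedom), with Benjamini-Hochberg adjustment over all 16372 genes. The fit was also run on simulated data in which all groups had the means of early TG6 and 1 dispersion, with changes set only in early OT-1. Those data held no divergent library, so they do not bear on how far the calls here depend on single libraries. A fold change on this scale understates that of low genes. Values in every library are given for members called in OT-1 minus TG6 in 1 direction at 2 or more stages, for the 3 with the largest change in each direction in that comparison and in each step between stages, and for any whose OT-1 minus TG6 difference changed between early and mature. Other lists are named by at most 3 genes in each direction, besides Atf4, Myc and Xpot. Some items, among them 1 member that counts and sums include, are not reported here. Members and lists were chosen with earlier results of these data known.

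The design text names 3 mice per line and 3 sorted populations, and the labels number biological replicates within each line. That 1 number is 1 mouse at every stage is inferred from this and is not stated. Deviations of same-numbered libraries correlated at 0.106 to 0.340 in F5 (9 pairs), 0.019 to 0.178 in OT-1 (9 pairs) and 0.023 to 0.274 in TG6 (7 pairs). These were over 0.1 in 9, 5 and 2 pairs. Fits with the replicate number as a block, other pseudocounts, filters, scalings and priors, fits of the compared groups alone and fits without each library were alternatives. Positions and exon lengths came from GENCODE vM21 (GRCm38).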

Additional observations from a re-analysis of the deposited data

Results flagged for a closer look

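Vars2, the mitochondrial valine enzyme, was picked out because its difference between OT-1 and TG6 was not the same at 2 stages. It was -2.06 on the log2 scale early and -0.26 mature, and the test of the change between them gave 1.80 (standard error 0.20, limma, adjusted p = 1.36e-05). It was the 1 member of 37 called in that test. The neighbouring gene Gtf2h4 gave 2.56 in the same test (adjusted p = 0.0031), and whether reads of one gene were counted for the other was not tested.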

How the results depend on the processing

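Single calls numbered 128 over the 37 members, and no alternative reversed 1. Over 1280 recomputed values without leaving out a library, 1154 kept their call and 126 lost it, and over 747 with 1 library left out, 514 kept and 233 lost it. Scaling by library totals moved the median of all genes by over 0.1 (to -0.11 in early OT-1 minus TG6), and 11 cytosolic genes were then called higher there. The cause of these shifts was not tested.

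In OT-1 minus TG6 the 4 late cytosolic calls became 2 with no filter, 1 with total scaling, 2 with no prior trend and 8 with the compared groups alone. The 3 mature cytosolic calls became 1 with total scaling and 0 with the compared groups alone, and the 1 mature mitochondrial call became 0 with no filter, no trend or the compared groups alone. In OT-1 minus F5 the 1 early cytosolic call became 2 at a mean of at least 50 and 7 with the compared groups alone. The 2 late mitochondrial calls became 0 with no filter or the compared groups alone, and the 1 mature mitochondrial call 0 with no filter and 2 with total scaling, quantile normalization or the compared groups alone. In F5 minus TG6 the 1 early cytosolic call became 0 with no filter or no trend and 3 with the compared groups alone, the 1 early mitochondrial call 2 with the compared groups alone, and the 1 mature mitochondrial call 0 with pseudocount 0.1, no filter, total scaling, quantile normalization or the compared groups alone. From early to late in TG6, 1 cytosolic call became 2 at a mean of at least 50 or by quantile normalization and 5 with the compared groups alone, and 3 mitochondrial calls 5 by quantile normalization; in F5, 6 mitochondrial calls became 3 by quantile normalization or with the compared groups alone; in OT-1, 2 cytosolic calls became 6 with the compared groups alone. From late to mature with the compared groups alone, 13 cytosolic calls in TG6 became 1 and 9 in F5 became 3. The 3 mitochondrial calls in TG6 became 1 with no filter or total scaling and 0 by quantile normalization or with the compared groups alone, and the 2 in F5 became 1 with no filter or the compared groups alone.

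With the replicate number as a block (replicate block), random or fixed, late OT-1 minus TG6 had 2 cytosolic calls, early to late 3 in TG6 and 6 in OT-1, and mature F5 minus TG6 0 mitochondrial calls. The random block gave 1 late and 0 mature mitochondrial call in OT-1 minus F5 and 4 from late to mature in F5. No other count of calls moved by over 1.5 times. Of single calls, 6 were lost with each block.

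Leaving out 1 library gave these lowest and highest counts, cytosolic then mitochondrial. OT-1 minus TG6 had 8 to 11 and 2 to 4 early, 0 to 2 and 0 to 2 late, 0 to 14 and 0 to 1 mature. OT-1 minus F5 had 0 to 2 and 2 to 3 early, 3 to 9 and 0 to 3 late, 9 to 14 and 0 to 1 mature. F5 minus TG6 had 0 and 1 early, 0 and 0 late, 0 to 2 and 0 mature. Early to late had 0 to 2 and 3 in TG6, 2 to 6 and 2 to 5 in F5, 1 to 2 and 2 to 6 in OT-1. Late to mature had 6 to 16 and 0 to 3 in TG6, 4 to 10 and 0 to 3 in F5, 10 to 13 and 1 to 3 in OT-1. The test of mature against early had 0 and 1.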
